A study of Homo sapiens with 12 samples.

Results

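The comparison asks at which nucleotides loss of GPATCH4 and depletion of DHX15 changed 2'-O-methylation by different amounts. At each site the effect of the knockdown, siDHX15 minus siNT, was subtracted from the effect of the knockout, GPATCH4 KO minus WT. The result is called the difference of effects here, and it is negative where the score fell more in the knockout and positive where it fell more after the knockdown. All 12 of the 12 libraries and all 141 of the 141 sites listed in the authors' overview entered the comparison, with no filter on low values. The cells were Flp-In T-Rex HEK293, a human embryonic kidney line that carries an integration site for inducible transgenes. The 4 groups of 3 biological replicates were wild-type cells (WT), cells in which GPATCH4 was knocked out (GPATCH4 KO), and wild-type cells transfected with siRNA, either non-target (siNT) or aimed at DHX15 (siDHX15). A constitutive knockout was therefore set beside a transient knockdown, each against its own control, and the effects share no library. How many knockout clones were used and how long the siRNA acted are not given in the sources used here. The assay reads rRNA and snRNA, so it gives no value for the GPATCH4 or DHX15 transcript in any library.

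Box C/D small nucleolar RNAs pair with ribosomal RNA and place the methyltransferase fibrillarin on the nucleotide to be methylated, while small Cajal body RNAs (scaRNAs) do the same for most spliceosomal snRNAs. Each guide must bind and then leave the RNA again, and RNA helicases take part in this exchange during ribosome assembly. DHX15 is a DEAH-box helicase with roles in pre-mRNA splicing and ribosome assembly, and GPATCH4 belongs to the G-patch proteins, a family that activates DEAH-box helicases. RiboMeth-seq reads the modification from its effect on alkaline hydrolysis, because the bond after a 2'-O-methylated nucleotide resists cleavage. The RMS score used here is 1 minus the read ends at a site over those expected from its 6 neighbours on each side, and it is floored at 0. A score near 1 means that few fragments end at the site, and a score of 0 means that the site is cut as often as its neighbours or more often. The score is a depletion of read ends, not a calibrated share of methylated molecules.

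The libraries held 7437847 to 16314082 read ends in the WT and knockout groups, 1705278 to 1796931 in siNT and 875096 to 5111963 in siDHX15, so the knockdown effect rests on fewer reads. Between 97.8% and 98.7% of the read ends lay in rRNA, and no 2 replicates of a group were alike within sampling noise. Libraries that carried the same sequencing index in the 2 experiments shifted in common around their group means, with r over the sites of 0.161 to 0.496 in 6 pairs, against -0.494 to 0.196 in the 30 pairs with different indices. The part of the index in the results was not tested beyond a fit with the index as a block, which is given where it ended a call.

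The stretches of RNA on which the results turn are shown from the deposited sequences, 5' to 3', with the listed methylation sites in capitals and all other bases in lower case. They were chosen because they hold some of the largest differences, neighbouring sites that moved in opposite directions, a run of sites that moved together, and U2 sites with a call. 28S-Cm1340, with the largest positive difference, and the called site U2-Am1 lie outside them. Positions count from 1 at the 5' end of each deposited RNA. The genes of these RNAs occur in several copies, and no genome was used here to assign a copy, so no genomic coordinates are given.
18S 165 to 181: gAgcuaaUaCaugccga
18S 502 to 524: ccggggaGguAgugaCgaaaaau
18S 790 to 806: cccgaagCgUuuacuuu
18S 1319 to 1335: uggguggUgGugcaugg
28S 391 to 407: uuugaagAgAgaguuca
28S 2343 to 2430: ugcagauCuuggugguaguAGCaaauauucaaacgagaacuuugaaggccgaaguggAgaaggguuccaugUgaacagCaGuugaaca
28S 2796 to 2821: caggucuCcaaggugaacAgccucug
28S 4487 to 4506: aagcguuGgauUGuucaccc
28S 4614 to 4644: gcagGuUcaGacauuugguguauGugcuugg
U2 12 to 68: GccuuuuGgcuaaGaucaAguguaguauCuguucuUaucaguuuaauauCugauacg

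The knockout and the knockdown differed in effect at 53 of the 141 sites, which is 37.6% (limma, Benjamini-Hochberg adjusted p under 0.05). At 24 sites (17%) the score fell more in the knockout, and at 29 sites (20.6%) it fell more after the knockdown. With each library centred on its own median the split was 25 and 19, so the share of positive values among the calls went from 54.7% to 43.2%. The median over all sites was -0.00607 for the knockout effect, -0.0569 for the knockdown effect and 0.0320 for their difference, in units of the score. The difference ranged from -0.865 to 0.655 and had a median of -0.398 over the negative calls and 0.300 over the positive calls. Across the 141 sites both effects together had a Pearson correlation of 0.0961 and a Spearman correlation of 0.0892, given as a description because sites of one library share its reads. At an unadjusted p under 0.05 there were 25 negative and 35 positive sites.

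The treated libraries themselves lay apart in the same direction, which is no separate evidence because the same scores made the calls. At all 24 negative calls every knockout score was below every siDHX15 score, as it was at 30 of all 141 sites (21.3%). Every siDHX15 score was below every knockout score at 27 of the 29 positive calls and at 41 of all sites (29.1%), with 18S-Um627 and 18S-Gm867 as the exceptions. Within each experiment, knockout and WT scores did not overlap at any of the 24 negative calls (38.3% of all sites), and siDHX15 and siNT scores did not overlap at 28 of the 29 positive calls (44% of all sites), with U2-Cm61 as the exception.

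Sorted by the separate effects, 26 sites were lower in the knockout alone, and 18 of these had a negative difference while 8 did not pass. The knockdown alone lowered 35 sites, of which 26 had a positive difference and 9 did not pass. Another 9 sites were lower in both comparisons, and 71 in neither. Leaving out 1 library gave 7 to 17 sites lower in both, the 17 without GPATCH4 KO replicate 2. Of the 70 sites lower in at least one comparison (24.8% of all sites in the knockout, 31.2% after the knockdown), 52 had a difference that passed and 18 did not. Of those 18, 17 were called in one experiment only and 28S-Am2814 in both.

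**Figure D1:**
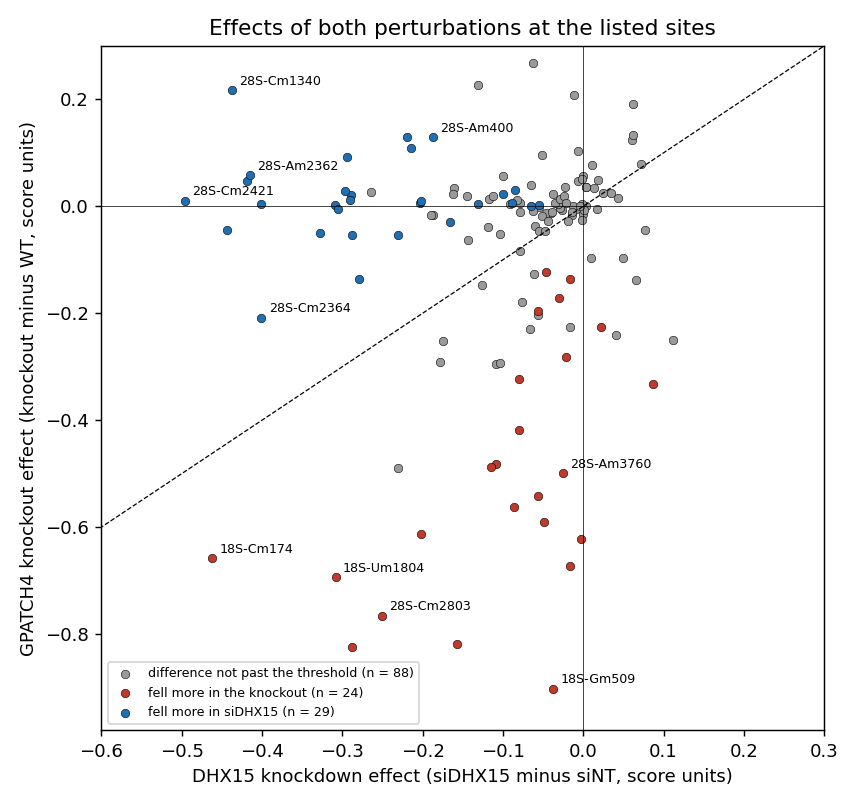
Effect of the GPATCH4 knockout (GPATCH4 KO minus WT) against the effect of the DHX15 knockdown (siDHX15 minus siNT) on the RMS score, 1 point per site for 141 sites, with a line where both are equal. The 24 sites with a negative difference and the 29 with a positive one lie on opposite sides of the line, the former spread along the knockout axis and the latter along the knockdown axis.

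Among the sites that fell more in the knockout, the largest difference was at 18S-Gm509, in the small ribosomal subunit. Its score was 0.897, 0.893 and 0.916 in WT replicates 1 to 3 and 0 in all 3 knockout libraries. The siNT libraries had 0.931, 0.911 and 0.952 and the siDHX15 libraries 0.945, 0.898 and 0.840, so the knockdown libraries overlapped their controls. The difference of effects was -0.865 (SE 0.0344, adjusted p = 6.00e-08). Because all 3 knockout scores were at the floor, its error holds no spread from the knockout, and without the floor the difference was -1.003. Downstream in the same stretch, 18S-Am512 fell from 0.956 ± 0.0115 (SD, n = 3) to 0.675 ± 0.0592 in the knockout and had 0.971 ± 0.00912 and 0.949 ± 0.0127 in siNT and siDHX15, a difference of -0.259 (SE 0.0365, adjusted p = 0.000316). 18S-Cm517, 5 nt further on, had a difference of 0.0545 that did not pass (95% interval -0.0172 to 0.126).

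18S-Um799 followed with a difference of -0.661 (SE 0.0901, adjusted p = 0.000253). Its WT scores of 0.946, 0.955 and 0.936 stood against 0.0708, 0.308 and 0 in the knockout, with no overlap. The siNT scores were 0.981, 0.968 and 0.971 and the siDHX15 scores 0.865, 0.806 and 0.775, also without overlap, although the knockdown effect did not pass (adjusted p = 0.0930). At 18S-Am668 the 3 knockout scores of 0.391, 0.219 and 0.120 lay far below WT scores of 0.941, 0.940 and 0.869. The siDHX15 scores there, 0.921, 0.910 and 0.885, lay within or next to the siNT range of 0.902 to 0.932, and the difference was -0.657 (SE 0.0781, adjusted p = 0.000115).

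In 28S, the RNA of the large subunit, Gm4494 gave the most negative value. WT libraries scored 0.943, 0.938 and 0.914 and knockout libraries 0.537, 0.125 and 0.268, whereas siNT had 0.880, 0.963 and 0.933 and siDHX15 0.941, 0.885 and 0.942. Knockout and WT were separate and the siRNA groups overlapped, for a difference of -0.619 (SE 0.115, adjusted p = 0.00165). The knockout replicates at 28S-Gm4494 were uneven, with a mean of 0.310 ± 0.209 (SD, n = 3). Its neighbours 28S-Um4498 and 28S-Gm4499 had differences of 0.0335 and 0.110 that did not pass (intervals -0.0356 to 0.103 and -0.0816 to 0.302).

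28S-Am3760 varied little between replicates. It scored 0.986, 0.976 and 0.977 in WT and 0.437, 0.503 and 0.501 in the knockout, against 0.991, 0.991 and 0.977 in siNT and 0.954, 0.954 and 0.976 in siDHX15. The knockout kept 49.0% of the WT score and the knockdown 97.5% of the siNT score, a difference of -0.474 (SE 0.0268, adjusted p = 7.17e-07). 28S-Cm3869 fell to 0.309 ± 0.0347 from 0.851 ± 0.0459 in the knockout and had 0.796 ± 0.0671 after the knockdown against 0.853 ± 0.0590, a difference of -0.485 (SE 0.0582). At 28S-Gm4042 the scores in WT were intermediate, at 0.527, 0.575 and 0.560, and the knockout had 0.203, 0.263 and 0.202. After the knockdown this site had a mean 0.0875 above its control (adjusted p = 0.0623), so the difference of -0.419 (SE 0.0444, adjusted p = 5.63e-05) exceeded the knockout effect of -0.331. From read 3' ends alone the differences at 28S-Gm4042 and 28S-Am3760 were -0.189 (adjusted p = 0.236) and -0.255 (0.129).

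Of the 15 most negative sites, 10 were in 18S, which holds 41 of the 141 listed sites. 18S-Am99 had knockout scores of 0.205, 0.163 and 0.575 and a difference of -0.540 (SE 0.130, adjusted p = 0.00816), and 18S-Am159 had 0.560, 0.363 and 0.467 and a difference of -0.374 (SE 0.0564). 18S-Am166 rested on an uneven knockout group of 0.483, 0 and 0.553, with a difference of -0.476 (SE 0.160, adjusted p = 0.0423). Without GPATCH4 KO replicate 2 the value at 18S-Am166 was -0.304 (adjusted p = 0.000133), and the call was lost without any single WT, siNT or siDHX15 library (adjusted p from 0.0638 to 0.0824), with the 6 pairs as blocks (0.0607) and with the index as a block (0.0725). Without the floor the difference at 18S-Am166 was -0.59 and did not pass (adjusted p = 0.12). 18S-Um1326 fell from 0.894 ± 0.0678 to 0.476 ± 0.0611 in the knockout and had 0.811 ± 0.0169 against 0.891 ± 0.0458 after the knockdown, a difference of -0.339 (SE 0.0568).

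Smaller negative differences reached other RNAs. In 5.8S, the short rRNA of the large subunit, Gm75 had 0.945, 0.936 and 0.954 in WT and 0.779, 0.758 and 0.783 in the knockout, and its difference was -0.141 (SE 0.0204, adjusted p = 0.000378). 28S-Gm1624 had a difference of -0.248 and 28S-Am2786 one of -0.242. The calls at 28S-Am2786 and 28S-Am3785, like that at 18S-Um627 among the positive sites, were each lost in 8 of the 12 fits that leave out 1 library. With the 6 pairs as blocks 28S-Am2786 (adjusted p = 0.123) and 28S-Am3785 (0.0737) did not pass, and with the index as a block 28S-Am3785 did not (0.113). From read 3' ends alone the value at 5.8S-Gm75 was -0.0758 (adjusted p = 0.217). The smallest negative calls were 28S-Am3785 at -0.0760 and 18S-Um428 at -0.119, the latter with an adjusted p of 0.0457 that rose to 0.0606 with the pairs and 0.0620 with the index as a block. At 18S-Um428 the call was also lost in 10 of the 12 fits that leave out 1 library (0.0571 to 0.105), all but those without GPATCH4 KO replicates 1 or 3. The knockdown effect over the 24 negative calls had a median of -0.0563, against -0.0569 over all 141 sites. Choosing sites by a negative difference favours small or positive knockdown effects, so this median is a description.

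The largest difference in the other direction was at 28S-Cm1340. WT scores were 0.439, 0.504 and 0.604 and knockout scores 0.846, 0.749 and 0.604, so the knockout had a mean above that of WT (0.217 higher, adjusted p = 0.0915). The siNT libraries scored 0.834, 0.582 and 0.578 and the siDHX15 libraries 0.156, 0.313 and 0.212, with no overlap. The difference of 0.655 (SE 0.119, adjusted p = 0.00142) therefore adds a knockdown effect of -0.437 to a knockout effect of opposite sign that did not pass alone. 28S-Cm1340 was also a site where the controls differed, with a siNT mean 0.149 above the WT mean, and the siDHX15 scores lay below the WT scores too.

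28S-Cm2421, in the 88 nt stretch of 28S shown, had a difference of 0.506 (SE 0.0745, adjusted p = 0.000403). Knockout scores of 0.867, 0.892 and 0.885 overlapped the WT range of 0.851 to 0.883, while siDHX15 scores of 0.527, 0.332 and 0.274 stood below siNT scores of 0.838, 0.888 and 0.896. The overview numbers this nucleotide 2409 in an older scheme as well.

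28S-Am398 and 28S-Am400 lie 2 nt apart and both had a positive difference. At 28S-Am398 the knockout scored 0.895, 0.880 and 0.925 against 0.822, 0.854 and 0.881 in WT, and siDHX15 scored 0.444, 0.497 and 0.469 against 0.895, 0.847 and 0.924 in siNT. Its difference was 0.467 (SE 0.0355, adjusted p = 6.34e-06). 28S-Am400 was the one site of the 141 that passed in opposite directions in the separate comparisons. It rose from 0.620, 0.677 and 0.701 in WT to 0.769, 0.834 and 0.784 in the knockout (adjusted p = 0.0368), the single rise among the 141 sites (0.709%). This rise passed neither with the index as a block nor from either kind of read end alone, and leaving out single libraries gave 0 to 4 rises. After the knockdown it fell from 0.794, 0.710 and 0.697 to 0.623, 0.493 and 0.523 (adjusted p = 0.00409). The difference of effects at 28S-Am400 was 0.317 (SE 0.0559, adjusted p = 0.00125). Neither of these sites passed when read 5' ends alone were scored (adjusted p = 0.0879 for 28S-Am398 and 0.102 for 28S-Am400).

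18S-Gm1490 gave the largest positive difference in 18S, 0.406 (SE 0.0360, adjusted p = 1.47e-05). Every WT and knockout library scored between 0.960 and 0.984 there, and siNT libraries had 0.946, 0.950 and 0.952. The siDHX15 libraries had 0.616, 0.505 and 0.523 and stood apart from the other 9 libraries. 18S-Am1031 showed the same arrangement at a smaller size, with siDHX15 scores of 0.754, 0.774 and 0.762 and a lowest score of 0.951 elsewhere, a difference of 0.209 (SE 0.0199, adjusted p = 2.53e-05).

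Towards the 3' end of 28S, Gm4637 had siDHX15 scores of 0.109, 0.293 and 0.308 against siNT scores of 0.582, 0.743 and 0.714. Its knockout scores of 0.631, 0.482 and 0.786 overlapped the WT scores of 0.545, 0.730 and 0.758, for a difference of 0.398 (SE 0.126, adjusted p = 0.0325). This call at 28S-Gm4637 was lost in 6 of the 12 fits that leave out 1 library, namely WT replicate 1, GPATCH4 KO replicates 1 and 3, siNT replicates 2 and 3 and siDHX15 replicate 1 (adjusted p from 0.0562 to 0.0773). At 28S-Gm4623 the difference was 0.388 (SE 0.0509, adjusted p = 0.000211), but the controls were apart by 0.151, with 0.703 ± 0.0324 in WT and 0.853 ± 0.0188 in siNT. The siDHX15 scores of 0.560, 0.477 and 0.640 were below all WT and knockout scores, and the knockout scores of 0.816, 0.775 and 0.797 were above all WT scores. 28S-Gm4618 and 28S-Um4620, in the same stretch, had differences of 0.0805 and -0.0103 that did not pass.

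Controls differed most among the positive calls at 18S-Gm867, where WT scored 0.487, 0.567 and 0.570 and siNT 0.836, 0.808 and 0.653. The siDHX15 scores of 0.549, 0.493 and 0.599 fell below those of siNT and lay within the range that WT and the knockout (0.548, 0.744 and 0.719) covered. The difference at 18S-Gm867, 0.348 (SE 0.0866, adjusted p = 0.00947), thus sets 2 effects measured from control levels 0.225 apart, and with the index as a block its adjusted p was 0.0611. The siNT mean was over 0.1 above the WT mean at 4 of the 29 positive calls, the others being 18S-Um172, 28S-Cm1340 and 28S-Gm4623, and at 14 of all 141 sites. At 26 of the 29 positive calls every siDHX15 score was also below every WT score, and 18S-Gm867, 28S-Am400 and 28S-Um2836 were the exceptions. All knockout scores were below all siNT scores at 24 of the 24 negative calls. The scores in these counts also made the calls, and the shares over all 141 sites were not counted. The counts are therefore descriptions and no separate evidence.

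Over the 29 positive calls the knockout effect had a median of 0.00612 and was above 0 at 21, with a range of -0.208 to 0.217. 28S-Um3818 had 0.836 ± 0.0234 and 0.839 ± 0.0369 in WT and knockout and 0.812 ± 0.00553 and 0.502 ± 0.0706 in siNT and siDHX15, a difference of 0.311 (SE 0.0466). The smallest positive differences were 0.0579 at U2-Am1, 0.0668 at 28S-Gm4228 and 0.0952 at 28S-Um4227, at sites with WT means of 0.991, 0.982 and 0.970. Between these and the 15 largest lay 28S-Am3718 (0.234), 28S-Am4571 (0.177), 18S-Um627 and 18S-Am27 (both 0.136), 18S-Am590 (0.123) and 28S-Um2836 (0.115). At 18S-Am27 the siDHX15 scores of 0.887, 0.842 and 0.853 stood below the other 9 libraries, of which the lowest had 0.949. The call at 18S-Am590 was lost in 6 of the 12 fits that leave out 1 library (adjusted p from 0.0510 to 0.0670), and that at 28S-Gm4228 without WT replicate 1 (0.0516) or siNT replicate 1 (0.0550). That at 28S-Am3718 was lost in 2 of these fits. With the index as a block the adjusted p was 0.0546 at 18S-Am590, 0.0596 at 28S-Am3718, 0.0826 at 28S-Um2836, 0.0750 at 28S-Um4227 and 0.227 at 28S-Gm4228. With the 6 pairs as blocks it was 0.0930 at 18S-Um627, 0.0570 at 28S-Um2836 and 0.0585 at 28S-Gm4228. 28S-Um2836 also did not pass from read 5' ends alone (0.196) or in centred libraries (0.111). Centring ended 10 calls, all of them positive. Among them were the smallest, U2-Am1 (0.0174, adjusted p = 0.567), 28S-Gm4228 (0.0263, 0.349) and 28S-Um4227 (0.0547, 0.130). The calls at 18S-Am590, 18S-Um627, 28S-Cm2364, 28S-Am3718, 28S-Gm4637 and U2-Cm61 were lost by it as well.

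**Figure D2:**
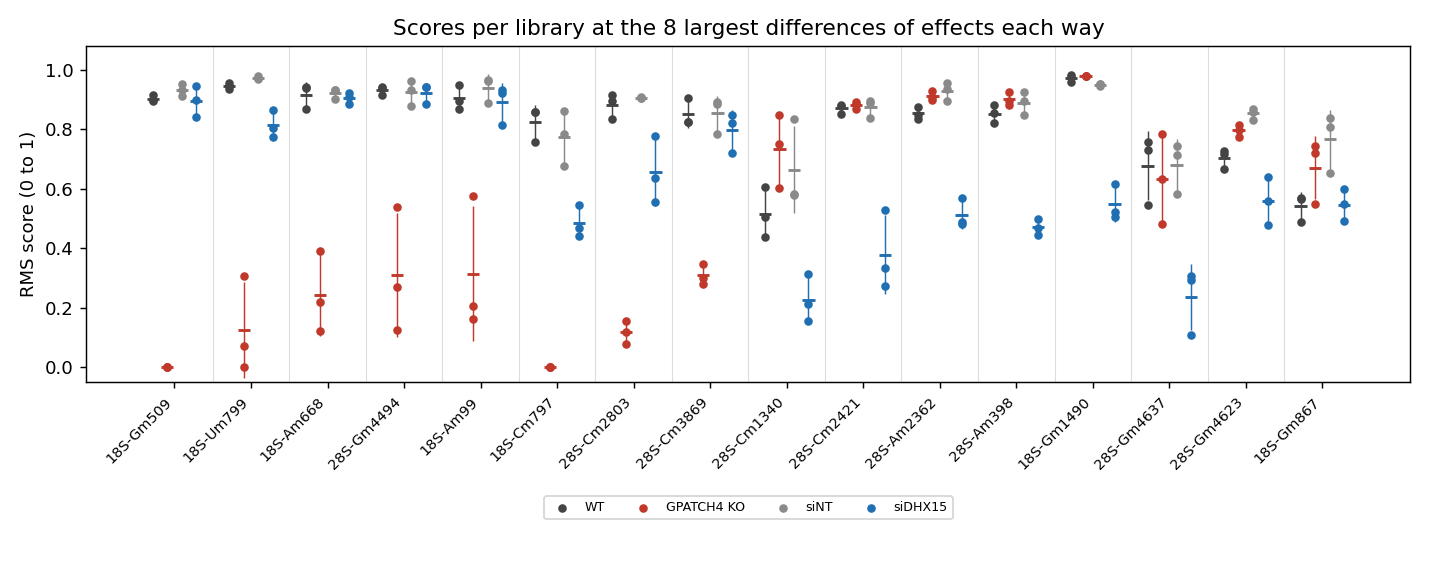
RMS score in each of the 12 libraries at the sites with the largest negative and the largest positive difference of effects; dots are libraries and lines give the mean ± SD of 3. At the negative sites the knockout libraries stand below the other 3 groups. At the positive sites the siDHX15 libraries do, except at 18S-Gm867, where they overlap WT and the knockout.

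The 9 sites that were lower in both comparisons were not lowered alike. At 6 the knockout effect was the larger, at 28S-Cm2350 and 28S-Cm2364 the knockdown effect was, and at 28S-Am2814 the difference did not pass. 18S-Cm797, next to Um799 in the stretch of 18S shown, had 0.858, 0.857 and 0.756 in WT, 0 in all 3 knockout libraries, 0.863, 0.783 and 0.675 in siNT and 0.441, 0.546 and 0.468 in siDHX15. The knockdown left 62.7% of the siNT score while the knockout left 0%, for a difference of -0.536 (SE 0.0671, adjusted p = 0.000153). Without the floor the difference at 18S-Cm797 was -0.829, and from read 3' ends alone it did not pass (adjusted p = 0.0762).

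28S-Cm2803 kept 13.3% of its WT score in the knockout and 72.3% of its siNT score after the knockdown. Its libraries had 0.916, 0.836 and 0.896 in WT, 0.154, 0.118 and 0.0796 in the knockout, 0.903, 0.909 and 0.906 in siNT and 0.636, 0.777 and 0.554 in siDHX15. All 4 groups of the 2 experiments were separate except the controls, and the difference was -0.515 (SE 0.0681, adjusted p = 0.000213). 11 nt downstream, 28S-Am2814 fell in both, from 0.966 ± 0.0123 to 0.920 ± 0.0154 in the knockout and from 0.979 ± 0.0131 to 0.923 ± 0.00678 after the knockdown. Its difference of 0.00942 did not pass (adjusted p = 0.787), and the 95% interval of -0.0368 to 0.0556 reaches about the size of either effect.

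18S-Gm644 (-0.411, SE 0.0485), 18S-Um1804 (-0.386, SE 0.0607) and 18S-Um1442 (-0.373, SE 0.0441) fell more in the knockout as well. At 18S-Um1804 the knockout libraries had 0.114, 0 and 0.000344 against 0.703, 0.730 and 0.762 in WT, and siDHX15 had 0.468, 0.460 and 0.479 against 0.850, 0.797 and 0.685 in siNT. The knockout kept 5.19% and the knockdown 60.3% of the respective control score at this site. 18S-Cm174 kept 33.8% of its siNT score after the knockdown. Its scores were 0.647, 0.677 and 0.650 in WT, 0 in all knockout libraries, 0.644, 0.703 and 0.746 in siNT and 0.269, 0.277 and 0.160 in siDHX15. The difference at 18S-Cm174 was -0.196 (SE 0.0474, adjusted p = 0.00849), but it was bounded by the floor and became -1.35 without it. Read 5' ends alone gave 0.0119 and read 3' ends alone -0.393, and with the index as a block the adjusted p was 0.0711.

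The 2 sites where the knockdown effect was the larger lie 14 nt apart in 28S. 28S-Cm2350 had 0.927, 0.969 and 0.960 in WT, 0.822, 0.824 and 0.805 in the knockout, 0.959, 0.944 and 0.983 in siNT and 0.720, 0.658 and 0.669 in siDHX15. The difference was 0.144 (SE 0.0290, adjusted p = 0.00260), and with the index as a block the adjusted p was 0.0520. 28S-Cm2364 had a difference of 0.193 (SE 0.0609, adjusted p = 0.0325), which was lost with the index as a block (0.105) and in 9 of the 12 fits that leave out 1 library (0.0570 to 0.0734), all but those without GPATCH4 KO replicate 3, siNT replicate 2 or siDHX15 replicate 1. Over all sites lower in the knockout the median share of the control score kept was 49.0%, with under 50% kept at 19 of 35. After the knockdown it was 72.3%, with under 50% kept at 4 of 44.

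**Figure D3:**
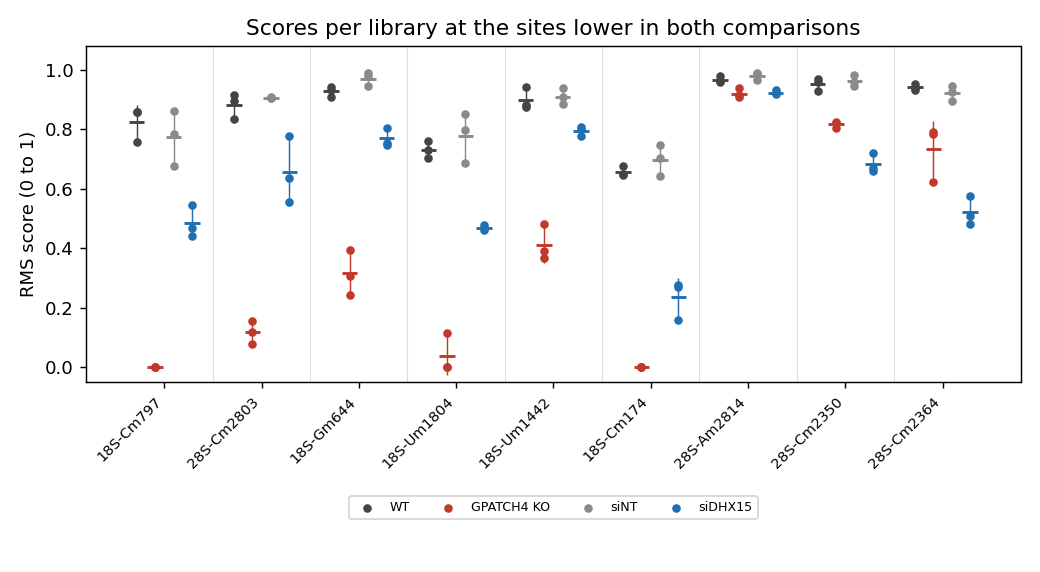
RMS score in each library at the 9 sites lower in both comparisons, with the mean ± SD of 3 per group. The knockout libraries of 18S-Cm797 and 18S-Cm174 lie at 0, whereas 28S-Cm2350 and 28S-Cm2364 have their lowest scores in siDHX15.

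Sites close together did not always move together. Among 88 pairs of listed sites within 12 nt of each other, both members passed in the same direction in 13 pairs and in opposite directions in 3. Many of the same-direction pairs come from the run of sites that moved together, described below, and share members. The numbers expected among unrelated sites were not worked out. These counts are therefore descriptions, and whether close sites moved together more often than other sites was not tested. All 3 opposite pairs are in 18S, in the stretches from 165 and from 1319. Those from 165 share 18S-Um172 and are not separate observations. Their other member is 18S-Am166 or 18S-Cm174, whose calls were each lost in other fits given above. 18S-Um172 had a positive difference of 0.278 (SE 0.0518, adjusted p = 0.00165) and lies 2 nt before 18S-Cm174 and 6 nt after 18S-Am166, whose differences were negative. Its scores were 0.801, 0.824 and 0.666 in WT, 0.732, 0.727 and 0.681 in the knockout, 0.846, 0.878 and 0.878 in siNT and 0.536, 0.524 and 0.558 in siDHX15.

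The other pair, 18S-Um1326 and 18S-Gm1328, is 2 nt apart with 1 base between. The knockout lowered Um1326 and left Gm1328 at 0.934, 0.934 and 0.921 against WT scores of 0.942, 0.945 and 0.870. The knockdown lowered Gm1328 from 0.972, 0.927 and 0.904 to 0.773, 0.686 and 0.737, while the scores of Um1326 after it, 0.801, 0.802 and 0.831, were below all siNT scores without passing (adjusted p = 0.165). The differences were -0.339 at 18S-Um1326 and 0.213 (SE 0.0404, adjusted p = 0.00183) at 18S-Gm1328. The call at 18S-Um1326 was lost with edgeR (adjusted p = 0.057), and that at 18S-Gm1328 in libraries thinned to equal depth. Close sites are part of each other's neighbours in the score, so a change at one enters the other. With every listed site left out of the neighbours, the values were -0.314 and 0.191 at this pair and 0.205 and -0.245 at 18S-Um172 and 18S-Cm174, and all 53 calls over the 141 sites remained.

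The stretch of 28S from 2343 to 2430, chosen because its sites moved together, held 8 listed sites. Of these, 7 had a positive difference that passed, against 20.6% of all 141 sites. Because the stretch was drawn around sites already seen to move together, setting these shares side by side is not a test. Besides Cm2350, Cm2364 and Cm2421, these were 28S-Am2362 (0.474, SE 0.0369), 28S-Gm2363 (0.310, SE 0.0180), 28S-Um2414 (0.303, SE 0.0509) and 28S-Gm2423 (0.324, SE 0.0274). The calls at Cm2350 and Cm2364 were lost with the index as a block, on the logit scale, with edgeR and from read 3' ends alone. That at Um2414 was lost from read 3' ends alone (adjusted p = 0.176). The 3 adjacent nucleotides Am2362, Gm2363 and Cm2364 had mean siDHX15 scores of 0.513, 0.661 and 0.522 against siNT means of 0.928, 0.950 and 0.923. In the knockout Am2362 and Gm2363 had scores above all WT scores without passing (adjusted p = 0.147 and 0.299), while Cm2364 fell from 0.941 ± 0.00962 to 0.733 ± 0.0965. The member that did not pass, 28S-Am2400, had a value of -0.190 with a 95% interval of -0.492 to 0.112, and was itself lower in the knockout (adjusted p = 0.0480). Its knockout scores were uneven, at 0.594, 0.186 and 0.606, so this interval is wide. Sites so close share their neighbours and their fragments and do not count as independent observations.

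By RNA, 18S had 14 negative and 8 positive calls among 41 sites and 28S had 8 negative and 18 positive among 68, read against 17% and 20.6% over all sites. Negative calls were thus 34.1% of 18S sites and 11.8% of 28S sites. Within 18S they fell in every region examined, with 4 of the 9 sites between positions 27 and 354, 4 of 13 between 428 and 644, 3 of 6 between 668 and 1031 and 3 of 13 between 1272 and 1804. In 28S, positive calls made up 8 of the 15 sites between 2350 and 2875, 3 of the 14 between 398 and 2043 and 3 of the 6 between 4571 and 4637. The 21 sites between 3627 and 4054 had 4 negative and 2 positive calls, and the 12 between 4196 and 4536 had 1 and 2.

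**Figure D4:**
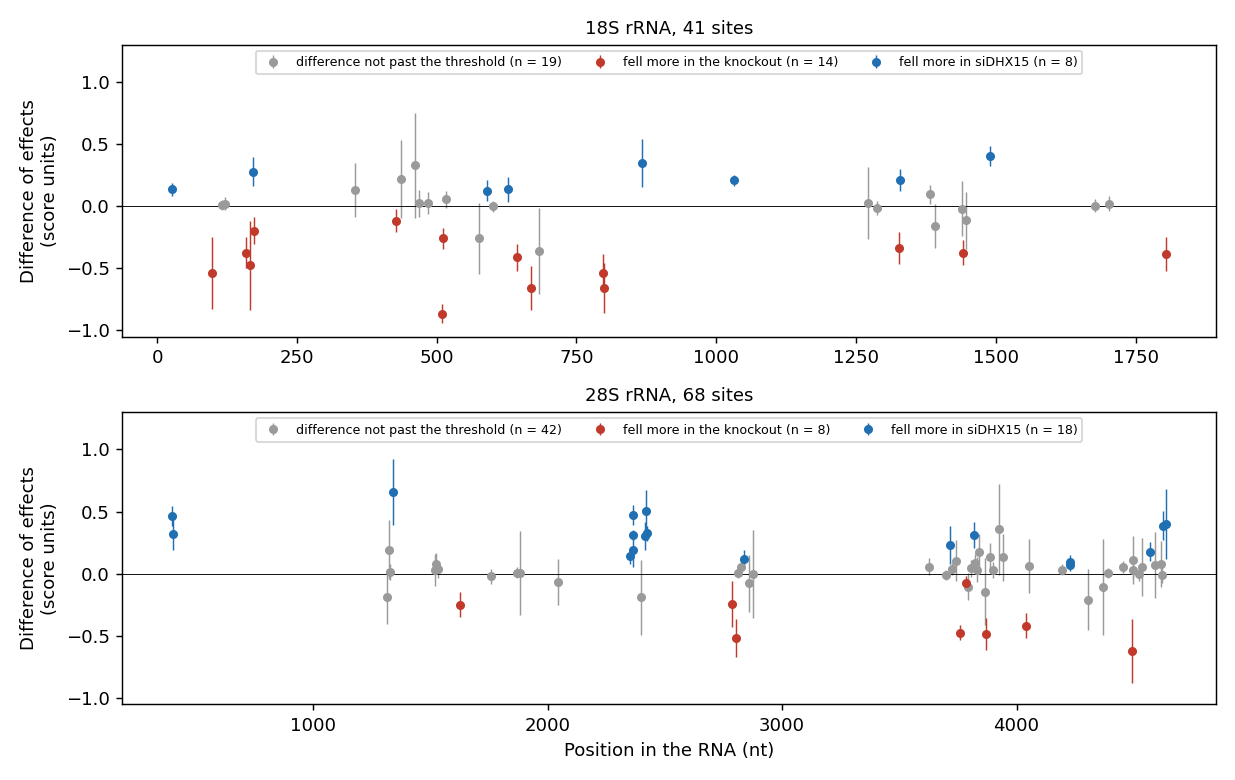
Difference of effects with its 95% interval at each listed site, by position (nt) in 18S and 28S. Negative values occur along the whole of 18S, and 7 of the 8 sites of 28S between 2343 and 2430 have positive values that passed, against 20.6% of all sites.

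By modified base, negative and positive calls numbered 8 and 9 of 44 at A, 4 and 5 of 32 at C, 6 and 9 of 39 at G, and 6 and 6 of 26 at U. Where the base 3' of the site was C, 7 of 29 sites were negative and 2 positive, and where it was U the counts were 5 and 11 of 36. Where it was A they were 3 and 6 of 26, and where it was G they were 9 and 10 of 50. In windows of 31 nt with a GC content under 50%, 12 of 69 sites were negative and 21 positive, and with 50 to 70% the counts were 11 and 8 of 71. Sites with a control score of 0.9 or more had 14 and 14 calls among 68, and those from 0.5 to 0.9 had 10 and 15 among 65. None of the 8 sites with a control score under 0.5 passed, where the median SE was 0.115 against 0.0341 at the highest level. These shares are descriptions and were not tested.

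Among the 30 snRNA sites, 4 (13.3%, against 37.6% over all sites) had a difference that passed, all in U2, the snRNA that pairs with the branch site. U2-Gm19, for which the overview lists SCARNA9 as the guide, had 0.698, 0.705 and 0.694 in WT, 0.685, 0.674 and 0.722 in the knockout, 0.737, 0.720 and 0.865 in siNT and 0.379, 0.421 and 0.605 in siDHX15. WT and knockout overlapped and the siRNA groups did not, for a difference of 0.300 (SE 0.0788, adjusted p = 0.0130, and 0.0523 with the index as a block). U2-Am30, listed under the same guide, had 0.891 ± 0.0134 in the knockout against 0.936 ± 0.00197 and 0.905 ± 0.0248 in siDHX15 against 0.952 ± 0.0101. Its difference was 0.00183, with a 95% interval of -0.0487 to 0.0523 that lies wholly under the lower bound of 0.124 at U2-Gm19. The 2 differences were not tested against each other.

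U2-Um47, for which the overview names no guide, was the single negative snRNA call. It fell from 0.930, 0.930 and 0.940 in WT to 0.761, 0.768 and 0.683 in the knockout, and had 0.959, 0.949 and 0.906 in siNT and 0.888, 0.883 and 0.875 in siDHX15, a difference of -0.140 (SE 0.0335, adjusted p = 0.00816). In libraries thinned to equal depth the value at U2-Um47 was -0.0889 (adjusted p = 0.411), and the call was also lost on the logit scale (0.109), from 5' ends (0.0502), from 3' ends (0.188) and with edgeR (0.143). At U2-Cm61, listed with SCARNA2, neither separate effect passed (adjusted p = 0.423 and 0.0692), and the difference of 0.324 (SE 0.112) did so narrowly (adjusted p = 0.0456). Its siDHX15 scores of 0.460, 0.247 and 0.561 overlapped siNT scores of 0.758, 0.553 and 0.599. The call at U2-Cm61 was lost in 9 of the 12 fits that leave out 1 library (adjusted p from 0.0555 to 0.103), all but those without GPATCH4 KO replicate 1, siNT replicate 2 or siDHX15 replicate 3, and with the index as a block (0.0725). U2-Am1, the first nucleotide, had 0.926, 0.939 and 0.935 in siDHX15 against 1.00, 1.00 and 0.965 in siNT, a difference of 0.0579 (SE 0.0200, adjusted p = 0.0456). It was lost with the 6 pairs (0.110), with the index as a block (0.217) and in 11 of the 12 fits that leave out 1 library (0.0569 to 0.115), all but that without siNT replicate 3.

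No site of U1 (3 sites), U4 (4), U5 (5) or U6 (8) passed. Differences ranged from -0.0236 to 0.0668 in U1, from -0.146 to 0.174 in U4, from -0.203 to 0.0584 in U5 and from -0.282 to 0.292 in U6. At U4 sites the siNT libraries had on average as few as 2.17 to 7.42 read ends per neighbouring position. The part of depth in these results was not tested beyond a fit of libraries thinned to equal depth, described below. U4-Am65 is listed under SCARNA5 and fell from 0.906, 0.953 and 0.834 to 0.743, 0.604 and 0.736 in the knockout (adjusted p = 0.0159). It scored 1.00 in all 3 siNT libraries and 1.00, 0.829 and 1.00 in siDHX15, and its difference of -0.146 did not pass (95% interval -0.314 to 0.0223). Without siDHX15 replicate 2 the difference at U4-Am65 was -0.203 (adjusted p = 0.0305). U5-Um41, listed under SCARNA5 and SCARNA6, had -0.203 (-0.446 to 0.0392).

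Of the 88 sites whose difference did not pass, 20 had a 95% interval within 0.1 of 0 on both sides, and 47 had one that reached beyond 0.2 in at least one direction. The median half-width of the interval over the 141 sites was 0.117. The largest values that did not pass were at 18S-Gm683, with -0.362 (-0.706 to -0.0175, adjusted p = 0.0971), and 28S-Um3925, with 0.358 (-0.00853 to 0.725, adjusted p = 0.126). Just inside the threshold were U2-Cm61, U2-Am1 and 18S-Um428, and just outside were 18S-Am1383 (adjusted p = 0.0535), 28S-Cm3841 and U6-Am70 (both 0.0708).

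The score sums fragment 5' and 3' ends, and each kind can be scored alone. From 5' ends, 52 of the 53 calls kept their sign, with 18S-Cm174 as the exception, and 45 passed again. From 3' ends, 51 of the 53 sites had a score, all 51 kept their sign and 25 passed. Those that did not pass from 3' ends included 18S-Um799 (adjusted p = 0.0943), 28S-Gm4494 (0.0532), 18S-Am99 (0.0575) and 28S-Am3760 (0.129), while 18S-Gm509 and 18S-Am668 did. With the index as a block all 53 kept their sign and 38 passed, and with the 6 same-numbered pairs as blocks all 53 kept their sign and 45 passed. In the latter the 8 calls lost were 18S-Am166, 18S-Um428, 18S-Um627, 28S-Am2786, 28S-Um2836, 28S-Am3785, 28S-Gm4228 and U2-Am1. On the logit scale 12 of the 53 calls did not pass, among them 18S-Am166, 18S-Gm644, 28S-Cm2350 and 28S-Cm2364. In libraries thinned to 875096 read ends each, 9 of the 53 did not pass. They were 18S-Am590, 18S-Gm867, 18S-Gm1328, 28S-Am2786, 28S-Am3785, 28S-Gm4228, 28S-Am4571, U2-Am1 and U2-Um47. In edgeR's fit of the read ends, which measures relative change, 19 did not pass, among them 18S-Gm644 (adjusted p = 0.641), 18S-Um1804, 28S-Cm2803 (0.0970), 18S-Am159 (0.0840) and 18S-Am99 (0.0569).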

How the data were processed

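RiboMeth-seq measured 12 total RNA libraries of Flp-In T-Rex HEK293 cells, in 4 groups of 3. Names in the submitters' processing notes are cutadapt 2.0, Bowtie2 2.3.4.1 and hg38, without roles. The deposited tables give, per replicate, counts of read 5' and 3' ends at 8164 positions of 10 RNAs and the authors' score, a fraction. The deposited score was recovered at 8044 of 8044 positions with full flanks (tolerance 1e-08) as 1 minus observed over expected ends, the latter averaging 6 weighted positions per side (weights 1.0 to 0.5). At 8 terminal snRNA sites the recalculated score was used. The overview's means differed from replicate means at 13 values in WT and the knockout and were not used.

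Scores were fitted on the linear scale with limma 3.58.1 (R 4.3.3), 4 group means over 12 libraries, two-sided, with Benjamini-Hochberg adjustment over 141 sites at 0.05. The score is a ratio of PCR-amplified reads, so no binomial interval is given. Same-numbered siNT and siDHX15 libraries had r of 0.117, 0.160 and 0.166 over sites, above the 0.1 taken here as pairing. Same-numbered WT and knockout libraries had 0.120, 0.0459 and -0.000863. Differently numbered siNT and siDHX15 libraries had 0.15, 0.12, 0.107, -0.243, -0.273 and -0.301. Values above 0.1 were therefore not particular to same-numbered libraries. Values with the 6 pairs or the index as blocks are printed where they ended a call. A block of the 3 replicate numbers ended 6 calls, among them U2-Cm61 (adjusted p = 0.0577).

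Named sites were up to 15 largest differences per direction, all sites lower in both, up to 5 nearest 0 among sites lower in at least one, the 3 nearest the threshold on each side, up to 4 examples per list, and snRNA sites with a call. Other sites printed were chosen after their values were seen. Members and lists were chosen with earlier results of these data known. Alternatives were replicate and index blocks, each library left out, logit, centring, 5' or 3' ends alone, recalculated scores, no floor, thinning, filters, variance models, 2 neighbours, edgeR 4.0.16 on counts and a threshold of 0.1. Leaving listed sites out of the neighbours was added after seeing the data. The fit was tested on simulated data.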

Additional observations from a re-analysis of the deposited data

How the results depend on the processing

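Of the 53 differences of effects, 45 passed again with the 6 same-numbered pairs as a replicate block, 38 with the index as a block and 43 in centred libraries. Counting also sites not called in the main fit, the pairs gave 20 negative and 28 positive calls. The index block gave 22 and 21, and centring 25 and 19. Leaving out 1 library gave 20 to 25 negative and 23 to 28 positive calls, 31 to 35 sites lower and 0 to 4 higher in the knockout, 36 to 52 lower and 0 to 1 higher after the knockdown, and 7 to 17 lower in both, the 17 without GPATCH4 KO replicate 2. Of 47 named calls, 15 held in all 30 settings and 8 were lost when some library was left out; over all 53 calls, leaving out 1 library lost 4 to 10. Read 3' ends alone gave 11 negative and 15 positive differences, 20 sites lower after the knockdown and 4 lower in both; edgeR gave 14 negative differences and 17 sites lower in both. Centring left 27 sites lower and 15 higher after the knockdown and 13 higher in the knockout, with 19 positive differences. Sites lower in both numbered 15 on the logit scale and 16 at an adjusted p under 0.1. The single site higher in the knockout became 0 with the 3-number replicate block, the index block, 5' ends or 3' ends, 2 with sites kept at 100 neighbouring ends or more, or at a mean score of 0.2 or more, thinning, 2 neighbours or listed neighbours left out, 3 with a variance per group and 6 at an adjusted p under 0.1. Sites higher after the knockdown went from 0 to 1 with the 6 pairs and at an adjusted p under 0.1.

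The sign turned at 18S-Cm174 from 5' ends (0.0119), and, among differences that did not pass, in centred libraries at 28S-Am2814 (-0.0311), U2-Am30 (-0.0386) and 28S-Gm4196 (-0.00658), from 3' ends at U2-Am30 (-0.0142), and at U4-Am65 in thinned libraries (0.0347) and with edgeR (1.93, log2 scale). U2-Am30 ranged from -0.0123 to 0.0112 when 1 library was left out. The cause was not tested. The median number of neighbouring read ends was lower at snRNA than at rRNA sites in all 12 libraries, and the 6 siRNA libraries held fewer read ends than the other 6. Scores at the floor in all 3 knockout libraries bound the knockout effect at 18S-Gm509, 18S-Cm797 and 18S-Cm174. Single knockout scores were at the floor at 18S-Am166, 18S-Um799 and 18S-Um1804.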
